A study of Homo sapiens with 6 samples.

Results

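The genes described here were the epidermal growth factor (EGF) family ligands AREG, EREG, TGFA, HBEGF and BTC, the ERBB receptors EGFR, ERBB2 and ERBB3, and the receptor inhibitors ERRFI1 and LRIG1. They were taken by gene symbol, and all 10 were found among the 28278 genes of the count tables. Of these 10, 9 had enough reads to be tested and LRIG1 was listed at 0 counts in every library. RNA was sequenced from HT29, an established human colorectal adenocarcinoma cell line of epithelial morphology. In the siALDOA group (genotype ALDOA KD) the cells received an siRNA against ALDOA, the glycolytic enzyme aldolase A. In the siControl group they received a scrambled siRNA, and RNA was taken 48 h later in both groups, with 3 libraries labelled as biological replicates in each. All libraries came from this single cell line. The labels name a single siALDOA treatment, with no second siRNA treatment against ALDOA to compare it with and no untransfected cells.

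The EGF family ligands are made as membrane-anchored precursors that metalloproteases release from the cell surface. The ligands described here bind EGFR, and some also ERBB4, and the receptors then pair and pass the signal to the RAS-ERK and PI3K-AKT pathways. In the intestinal epithelium this signal is known to drive proliferation, and inhibitors such as ERRFI1 and LRIG1 restrain it.

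The siALDOA libraries held 27277538 to 28690395 counts and the siControl libraries 31899091 to 33237914. Levels are given as CPM, the usual depth-normalised unit of RNA-seq, in which the count of a gene is divided by its library total after scaling by the TMM method. ALDOA itself was at 283, 305 and 280 CPM with siALDOA and at 592, 637 and 668 CPM with siControl, a change of -54.3% (log2 fold change -1.13, SE 0.0601, adjusted p = 6.95e-11 by the quasi-likelihood test of edgeR). The 10 markers of colorectal epithelium summed to 9470 to 9810 CPM with siALDOA and 10000 to 10600 CPM with siControl. KRT8 made up most of the sum, and single markers went both ways, since the keratin KRT19 rose (log2 fold change 0.38, adjusted p = 0.000577, edgeR) and the keratin KRT18 fell (-0.28, adjusted p = 0.0152, edgeR). LGALS4 was listed at 0 in all 6 libraries. Fibroblast, leukocyte and endothelial markers summed to at most 15.4 CPM per list in any library. Ribosomal RNA genes took 7.71% to 13.1% of the counts with siALDOA and 8.15% to 17.4% with siControl, and the same number of members passed when these genes were left out. Libraries did not divide by group in this share, since siControl replicate 3 (8.15%) was close to siALDOA replicates 2 and 3 (7.71% and 8.11%), while siALDOA replicate 1 (13.1%) was closer to the other siControl libraries (15.3% and 17.4%). Over all tested genes, the counts of siControl replicate 3 differed less from siALDOA replicates 2 and 3 (chi-square per degree of freedom 23.8 and 23.2) than from siControl replicates 1 and 2 (91.9 and 58.8). Those of siALDOA replicate 1 differed less from siControl replicate 2 (26.6) than from siALDOA replicates 2 and 3 (39.8 and 34.8). Without ribosomal RNA genes each library was nearest to its own group, at 4.77 to 10.6 within groups and 21 to 26.1 between them.

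Across the family, 3 of the 9 tested genes were down-regulated with siALDOA at an adjusted p under 0.05 and 0 were up-regulated. The 3 were the ligands EREG, AREG and TGFA, and no receptor passed. Of all 15307 tested genes 9.66% passed, 4.36% being higher and 5.29% lower with siALDOA. An unadjusted p under 0.05 by edgeR was found for 6 of the 9 genes and for 3616 of the 15307. The median log2 fold change was -0.13 over the 9 genes and 0.0016 over all tested genes, and 7 of the 9 lay below 0. The CPM of the groups did not overlap for 6 of the 9 genes, against 27.7% of all tested genes. With library totals alone in place of TMM, the calls over all genes turned from 668 higher and 810 lower to 896 higher and 279 lower, and 2 of the 9 family members, EREG and AREG, passed. In bulk RNA, fewer cells making a transcript and less of it per cell cannot be told apart.

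**Figure D1:**
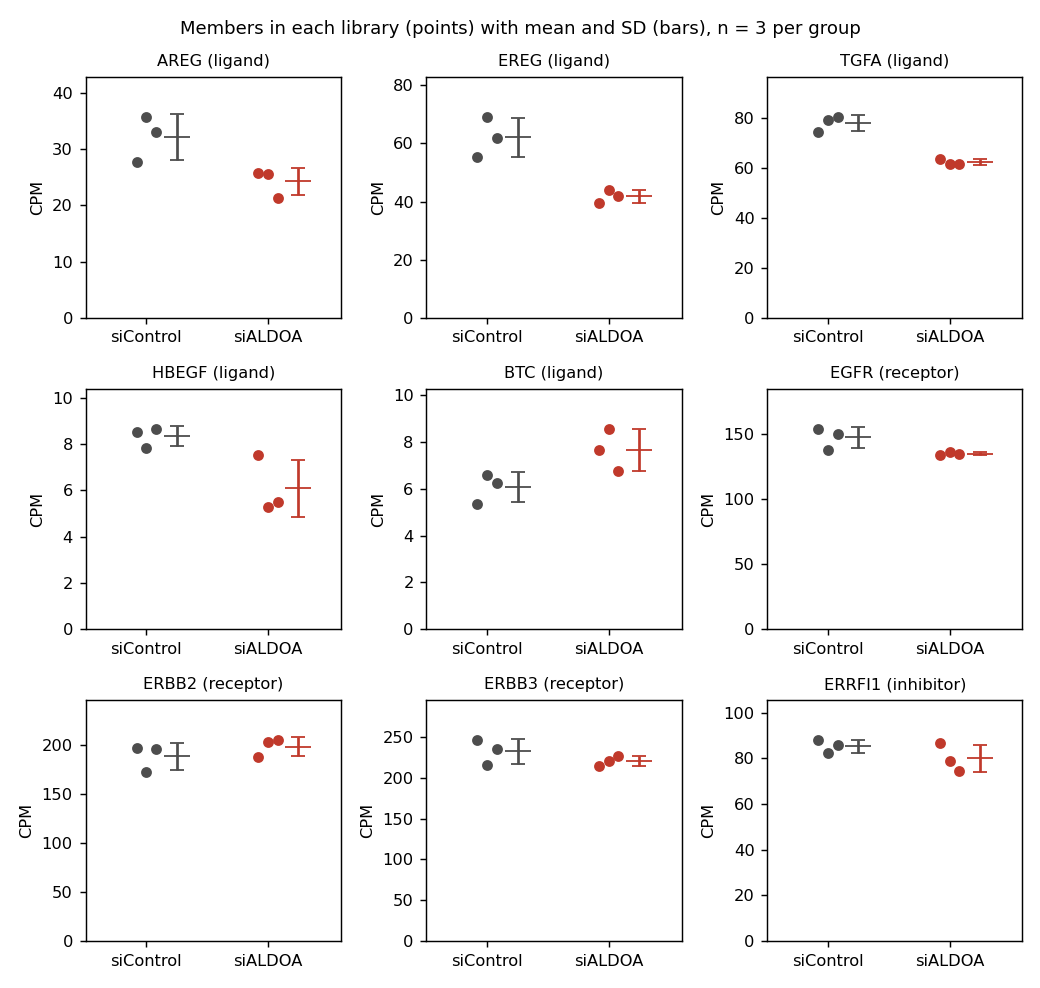
CPM (TMM-scaled) of the 9 tested genes, 1 panel per gene with its own axis from 0, for siALDOA and siControl. Points are the 3 libraries of a group, with the mean and the SD beside them. EREG, AREG and TGFA were lower in each siALDOA library than in any siControl library, and ERBB2, ERBB3 and ERRFI1 overlapped.

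EREG (epiregulin, a ligand of EGFR and ERBB4) showed the largest log2 fold change among the 9 genes when all 6 libraries were used. Without siALDOA replicate 1 that of HBEGF was larger (-0.63 against -0.53), as it was without siControl replicate 2 (-0.50 against -0.49). EREG was at 39.5, 44 and 41.8 CPM with siALDOA and at 55.4, 69 and 61.9 CPM with siControl. Each siALDOA library lay below each siControl library, with means of 41.7 ± 2.25 and 62.1 ± 6.85 CPM (SD, n = 3 each). EREG was thus down-regulated by a log2 fold change of -0.57 (SE 0.0788, 95% interval -0.74 to -0.41, adjusted p = 5.02e-05, edgeR). That is a change of -32.8%, and the gene ranked 157 by p among all tested genes. EREG passed under all 15 alternative settings, with log2 fold changes between -0.65 and -0.49.

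AREG (amphiregulin, a ligand of EGFR) lies on the same arm of chromosome 4 as EREG, at chr4:74445136-74455005 on the plus strand of hg38 (ENSG00000109321). EREG (ENSG00000124882) is at chr4:74365145-74388749 on the same strand, 56.4 kb away. AREG was at 25.8, 25.6 and 21.4 CPM with siALDOA and at 27.8, 35.7 and 33.1 CPM with siControl. The groups did not overlap, but the highest siALDOA library came close to the lowest siControl library. The means were 24.3 ± 2.48 and 32.2 ± 4.02 CPM (SD, n = 3 each), and AREG was down-regulated by a log2 fold change of -0.41 (SE 0.0985, 95% interval -0.61 to -0.20, adjusted p = 0.0105, edgeR), a change of -24.6%. The call for AREG rested on single libraries. Leaving out siALDOA replicate 3 gave an adjusted p of 0.0647 by edgeR, while leaving out replicate 2 or replicate 3 of siControl gave 0.0842 or 0.0526, with log2 fold changes between -0.50 and -0.33 over all settings.

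The starts of these neighbouring genes are shown because both fell, as the 250 bases before the RefSeq start site (GRCh38.p14, plus strand, 5′ to 3′). RefSeq entries were matched for 9 of the 10 genes, ERBB3 being the exception. The windows are chr4:74364895-74365144 for EREG and chr4:74444886-74445135 for AREG. Capitals mark matches to 4 words searched on both strands, none of which overlap here. The TATA box was searched as TATAAA. The cAMP response element (CRE) was searched as TGACGTCA. The site of AP-1 factors was searched as TGANTCA. The site of TEAD factors was searched as GGAATG, whose match in EREG is on the minus strand and so appears as its reverse complement.
EREG: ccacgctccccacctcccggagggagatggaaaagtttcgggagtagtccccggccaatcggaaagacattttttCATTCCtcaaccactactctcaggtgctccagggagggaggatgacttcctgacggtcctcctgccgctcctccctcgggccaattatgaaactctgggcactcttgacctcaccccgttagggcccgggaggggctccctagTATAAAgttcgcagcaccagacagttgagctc
AREG: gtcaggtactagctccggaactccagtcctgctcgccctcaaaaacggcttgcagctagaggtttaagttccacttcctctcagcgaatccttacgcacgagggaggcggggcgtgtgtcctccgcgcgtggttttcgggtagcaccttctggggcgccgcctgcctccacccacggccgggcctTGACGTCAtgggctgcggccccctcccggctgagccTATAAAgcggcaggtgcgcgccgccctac
TATAAA begins at position -32 in EREG and at position -29 in AREG, counted from the start site, and was found in no other of the 9 matched genes. Of 35116 RefSeq windows of 300 bases (250 before the start and 50 after), 11.5% hold it. AREG also holds TGACGTCA at position -65, which 1.85% of the windows hold, and EREG holds the TEAD word at position -175 on the minus strand, which 14% hold. TGANTCA was found in ERBB2 alone among the 9 genes, and 7.71% of all windows hold it. None of the 4 words was found in the TGFA, HBEGF, BTC, EGFR, ERRFI1 and LRIG1 windows. These matches describe the letters only.

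TGFA (transforming growth factor alpha, a ligand of EGFR; ENSG00000163235, chr2:70447284-70554193, minus strand) was at 63.6, 61.5 and 61.7 CPM with siALDOA and at 74.2, 79.2 and 80.3 CPM with siControl. The siALDOA libraries lay within a narrow range below all siControl libraries. The means were 62.2 ± 1.13 and 77.9 ± 3.25 CPM (SD, n = 3 each), a log2 fold change of -0.32 (SE 0.0622, 95% interval -0.45 to -0.19, adjusted p = 0.0017, edgeR) and a change of -20.1%. TGFA passed under 14 of 15 settings. With library totals alone its log2 fold change was -0.25 and its adjusted p was 0.0609 by edgeR.

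HBEGF (heparin-binding EGF-like growth factor, a ligand of EGFR and ERBB4; ENSG00000113070, chr5:140332843-140346603, minus strand) did not pass. It was a low transcript, at 7.51, 5.26 and 5.49 CPM with siALDOA and at 8.53, 7.83 and 8.65 CPM with siControl. The groups did not overlap, with siALDOA replicate 1 nearest to the siControl libraries. Its log2 fold change was -0.46 (SE 0.153, 95% interval -0.78 to -0.14, adjusted p = 0.0658, edgeR). Without siALDOA replicate 1 the log2 fold change was -0.63 and the adjusted p of edgeR was 0.01. HBEGF passed under 4 of 15 settings, with adjusted p-values up to 0.222.

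BTC (betacellulin, a ligand of EGFR and ERBB4; ENSG00000174808, chr4:74744759-74794523, minus strand) lies 290 kb from AREG. Its values were 7.65, 8.55 and 6.76 CPM with siALDOA and 5.36, 6.59 and 6.22 CPM with siControl. It was the only ligand of the 5 with a log2 fold change above 0, at 0.34 (SE 0.148, 95% interval 0.030 to 0.65, adjusted p = 0.167, edgeR). It passed under none of the 15 settings. Of the 8 other tested genes within 1 Mb of AREG, 0 passed in edgeR, DESeq2 or limma-voom, and their median log2 fold change was 0.25. None of the 8 had an unadjusted p under 0.05, against 3616 of all 15307 tested genes.

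**Figure D2:**
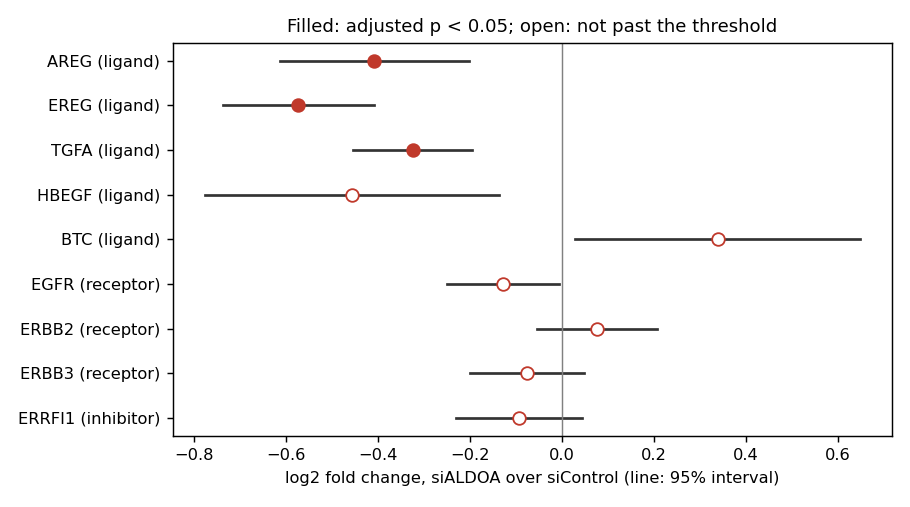
Log2 fold change of siALDOA over siControl for the 9 tested genes from the edgeR fit, with 95% intervals. EREG, AREG and TGFA passed at an adjusted p under 0.05, with log2 fold changes of -0.57, -0.41 and -0.32.

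The log2 fold changes of the receptors lay between -0.13 and 0.078, and none passed. EGFR, the receptor that all 5 ligands bind (ENSG00000146648, chr7:55019017-55211628, plus strand), was at 134, 136 and 135 CPM with siALDOA and at 154, 138 and 150 CPM with siControl. The siALDOA libraries lay just below the lowest siControl library. The log2 fold change was -0.13 (SE 0.0584, 95% interval -0.25 to -0.0066), with an unadjusted p of 0.0398 and an adjusted p = 0.185 by edgeR. With library totals alone the log2 fold change was -0.056. Of the 3 receptors EGFR alone had an unadjusted p under 0.05, against 3616 of all 15307 tested genes. None of the receptors passed in DESeq2 or limma-voom.

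ERBB2, which has no known ligand of its own and pairs with the other receptors (ENSG00000141736, chr17:39687914-39730426, plus strand), was at 188, 203 and 205 CPM with siALDOA and at 197, 173 and 196 CPM with siControl. The ranges overlapped, and the log2 fold change of 0.078 had a 95% interval of -0.053 to 0.21 (adjusted p = 0.499, edgeR). ERBB3, a neuregulin receptor with little kinase activity of its own (ENSG00000065361, chr12:56076799-56103505, plus strand), was at 215, 221 and 227 CPM with siALDOA and at 246, 216 and 236 CPM with siControl. These ranges overlapped too, and the log2 fold change of -0.076 had a 95% interval of -0.20 to 0.048 (adjusted p = 0.484, edgeR). The values of both depended on single libraries and on scaling. Without siControl replicate 2 they were 0.017 for ERBB2 and -0.13 for ERBB3, without siControl replicate 1 that of ERBB3 was -0.035, and with library totals alone they were 0.15 and -0.0020.

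ERRFI1, a cytoplasmic protein that binds the EGFR kinase domain and blocks it (ENSG00000116285, chr1:8004404-8026309, minus strand), was at 86.5, 78.6 and 74.6 CPM with siALDOA and at 87.8, 82.1 and 85.7 CPM with siControl. The groups overlapped, and the log2 fold change of -0.093 had a 95% interval of -0.23 to 0.045 (adjusted p = 0.432, edgeR). It was -0.15 without siALDOA replicate 1, -0.046 without siALDOA replicate 3 and -0.021 with library totals alone. LRIG1, a transmembrane protein that promotes the loss of ERBB receptors (ENSG00000144749, chr3:66378797-66501263, minus strand), was listed at 0 in all 6 libraries. A count of 0 allows up to 3 counts, or 0.0903 to 0.11 CPM before TMM scaling, as far as counting error goes. NRG1 and LGALS4 were also listed at 0, as were 7308 genes in all, so a listing at 0 was not read as a lack of transcript. LRIG1 shares 9320 bases with SLC25A26, at chr3:66378797-66388116, and the part of this overlap in the listing was not tested.

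To compare the genes with each other, CPM was divided by the merged exon length of each gene (RPKM). In the siControl libraries ERRFI1 (20.4 ± 0.69 RPKM), ERBB3 (19.9 ± 1.3), AREG (19.6 ± 2.45) and ERBB2 (18.3 ± 1.32) led, and each overlapped its neighbour in this order (SD, n = 3). TGFA followed at 15.8 ± 0.661 RPKM, then EREG at 10.9 ± 1.19 and EGFR at 9.24 ± 0.522. HBEGF and BTC were lowest, at 2.79 ± 0.148 and 2.28 ± 0.238 RPKM. From ERBB2 downwards, neighbouring genes did not overlap. With siALDOA the same lengths gave ERBB2 19.2 ± 0.9, ERRFI1 19.1 ± 1.45, ERBB3 18.9 ± 0.512, AREG 14.8 ± 1.51, TGFA 12.7 ± 0.236, EGFR 8.47 ± 0.0627, EREG 7.31 ± 0.394, BTC 2.88 ± 0.337 and HBEGF 2.04 ± 0.414 RPKM. EREG and EGFR thus stood in the opposite order to siControl, as did HBEGF and BTC. The order depended on the length used. With the longest transcript of each gene, EREG was already below EGFR in siControl (13.5 and 14.9 RPKM) and AREG below ERBB2 (26.1 and 38.3 RPKM).

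**Figure D3:**
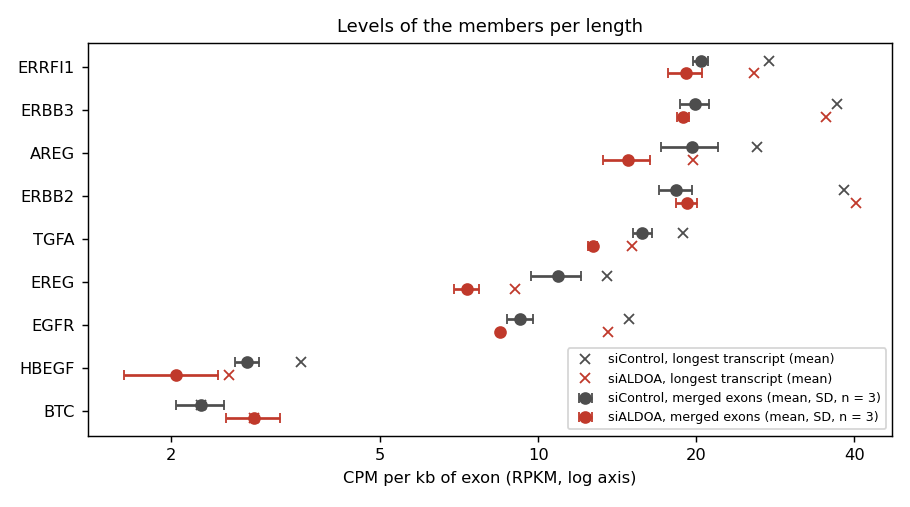
Level of the 9 tested genes per kilobase of merged exons (RPKM, log axis) in siControl and siALDOA libraries, as mean and SD of 3 libraries. In siControl, 4 genes sat between 18.3 and 20.4 RPKM, and HBEGF and BTC were lowest.

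Ratios between genes of the same library do not depend on scaling between libraries, and 5 pairs were compared by the two-sided exact permutation test, whose smallest p for 3 against 3 is 0.1. The ratio of ERBB3 to ERBB2 counts was 1.14, 1.09 and 1.11 with siALDOA and 1.25, 1.25 and 1.21 with siControl. It was the only pair without overlap (difference of log2 ratios -0.15, exact p = 0.1, 0.5 after adjustment over the 5 pairs). The log2 ratio of AREG to EREG was -0.79 ± 0.175 and -0.95 ± 0.0447 (SD, n = 3 each; exact p = 0.3), and the groups overlapped. AREG to EGFR gave -2.48 ± 0.152 and -2.20 ± 0.257 (exact p = 0.3). AREG to TGFA and ERRFI1 to EGFR differed by -0.082 and 0.032 on the log2 scale, with exact p-values of 0.6 and 0.8.

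**Figure D4:**
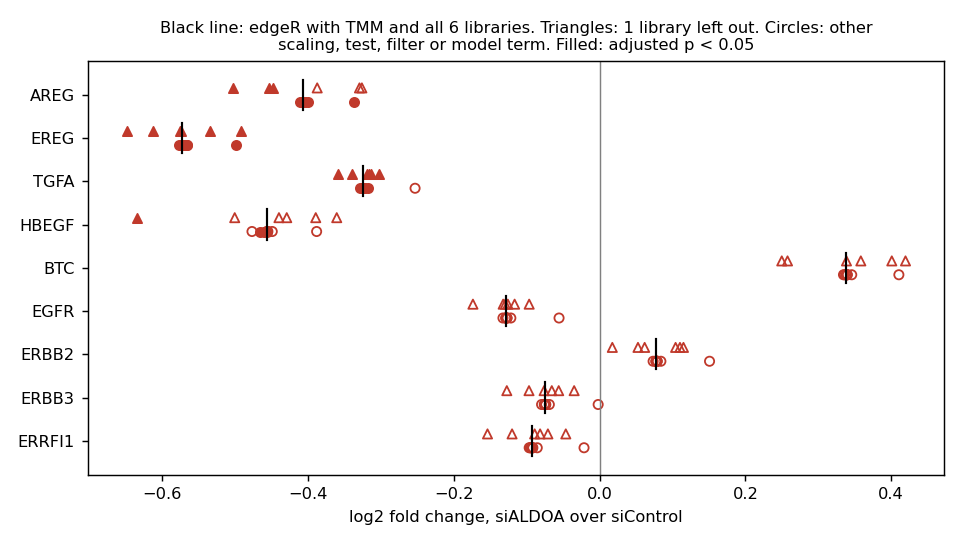
Log2 fold change of siALDOA over siControl of each tested gene under the main fit and 15 alternative settings. Circles are another scaling, test, filter or model term, triangles leave out 1 library, and filled symbols have an adjusted p under 0.05. EREG passed under all 15 alternatives, TGFA under 14, AREG under 12 and HBEGF under 4.

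The other genes of the pathway were read from 7 lists of 70 genes, of which 64 were tested. Of these 64, 2 were up-regulated and 7 down-regulated, which is 14.1% against 9.66% of all tested genes, and their median log2 fold change was 0.0082 against 0.0016. The 7 lower calls became 1 with library totals alone, 4 without siControl replicate 2 and 3 without siControl replicate 3. Among the other ligands and ERBB4, EGF and NRG4 were tested and neither passed, with log2 fold changes of 0.10 and -0.18. None of the 7 genes of ligand shedding and trafficking passed in edgeR or DESeq2, and 1 passed the edgeR likelihood ratio test. An unadjusted p under 0.05 was found for 1 of the 7, against 3616 of all 15307 tested genes. The 7 include ADAM17, the main protease that releases AREG, EREG and TGFA, which had a log2 fold change of 0.10 (95% interval -0.030 to 0.24). They also include ADAM10, which releases BTC, at 0.022 (-0.10 to 0.14).

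Behind the receptors, single genes changed in opposite directions. The adaptor SHC1, which couples receptors to RAS, was at 203 ± 18 CPM with siALDOA and 158 ± 4.15 CPM with siControl, and rose by a log2 fold change of 0.36 (adjusted p = 0.000809, edgeR). The phosphatase PTPN11, which promotes RAS activation, fell from 248 ± 6.39 to 210 ± 8.2 CPM (log2 fold change -0.24, adjusted p = 0.00758, edgeR), and these were 2 of 8 adaptors and exchange factors. PTPN11 lost its call with library totals alone (log2 fold change -0.17, adjusted p = 0.214), without siALDOA replicate 3 (0.0514) and without siControl replicate 2 (0.0511). In the list of 10 RAS-RAF-MEK-ERK genes, 1 passed. NRAS, a RAS GTPase, fell from 127 ± 3.18 to 94.2 ± 1.67 CPM (log2 fold change -0.43, adjusted p = 3.57e-05, edgeR). None of the 8 tested PI3K-AKT genes passed the quasi-likelihood test of edgeR. An unadjusted p under 0.05 was found for 1 of the 8, against 3616 of all 15307 tested genes. By the other tests, 1 of the 8 passed in DESeq2, 1 in the edgeR likelihood ratio test and 0 in limma-voom.

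Among 13 further inhibitors, ubiquitin ligases and sorting proteins, 1 rose and 1 fell. PTPRJ, a receptor phosphatase that acts on EGFR, was at 113, 117 and 118 CPM with siALDOA and at 77.5, 79.2 and 77.5 CPM with siControl, a log2 fold change of 0.57 (adjusted p = 7.51e-07, edgeR). Its groups lay far apart against their spread, at 116 ± 2.44 and 78.1 ± 0.983 CPM. RNF41, a ubiquitin ligase that targets ERBB3, fell from 88.9 ± 1.01 to 72.1 ± 4.22 CPM (log2 fold change -0.30, adjusted p = 0.00327, edgeR), a call that was lost with library totals alone (log2 fold change -0.23, adjusted p = 0.101).

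The 16 genes known as output of ERK signalling had a median log2 fold change of -0.046, against 0.0016 over all tested genes. Their values ran from -0.397 to 0.225, with 7 genes above 0 and 9 below, so the list went both ways. Of all tested genes 9.66% passed, 5.29% being lower. Of the 16, 25% passed, 4 as lower and 0 as higher. They were EGR1, an immediate-early transcription factor (log2 fold change -0.40), DUSP4, a phosphatase of MAP kinases (-0.29), SPRED2, an inhibitor of RAS-ERK signalling (-0.27), and CCND1, cyclin D1 (-0.24). Their adjusted p-values were 0.0362, 0.0182, 0.0182 and 0.0122 by edgeR. With library totals alone, all 4 lost their calls, with adjusted p-values of edgeR of 0.107, 0.17, 0.197 and 0.255 for EGR1, DUSP4, SPRED2 and CCND1. Leaving out siControl replicate 3 also ended the calls of EGR1, DUSP4, SPRED2 and CCND1, with adjusted p-values of edgeR of 0.0547, 0.11, 0.087 and 0.0692. Their log2 fold changes in that fit were still -0.44, -0.26, -0.26 and -0.23. Calls also ended without siControl replicate 2 for EGR1 (0.196) and CCND1 (0.0727), and without siALDOA replicate 3 for EGR1 (0.0627). The same held without siALDOA replicate 1 for EGR1 (0.135) and SPRED2 (0.0526), without siALDOA replicate 2 for DUSP4 (0.0847) and without siControl replicate 1 for SPRED2 (0.0731). When a library was left out, the log2 fold change closest to 0 among these lost calls was -0.19, for SPRED2 without siALDOA replicate 1, and with library totals alone it was -0.17, for CCND1. That of EGR1 was -0.26 without siALDOA replicate 1. SHC1, NRAS and PTPRJ passed under all 15 settings.

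**Figure D5:**
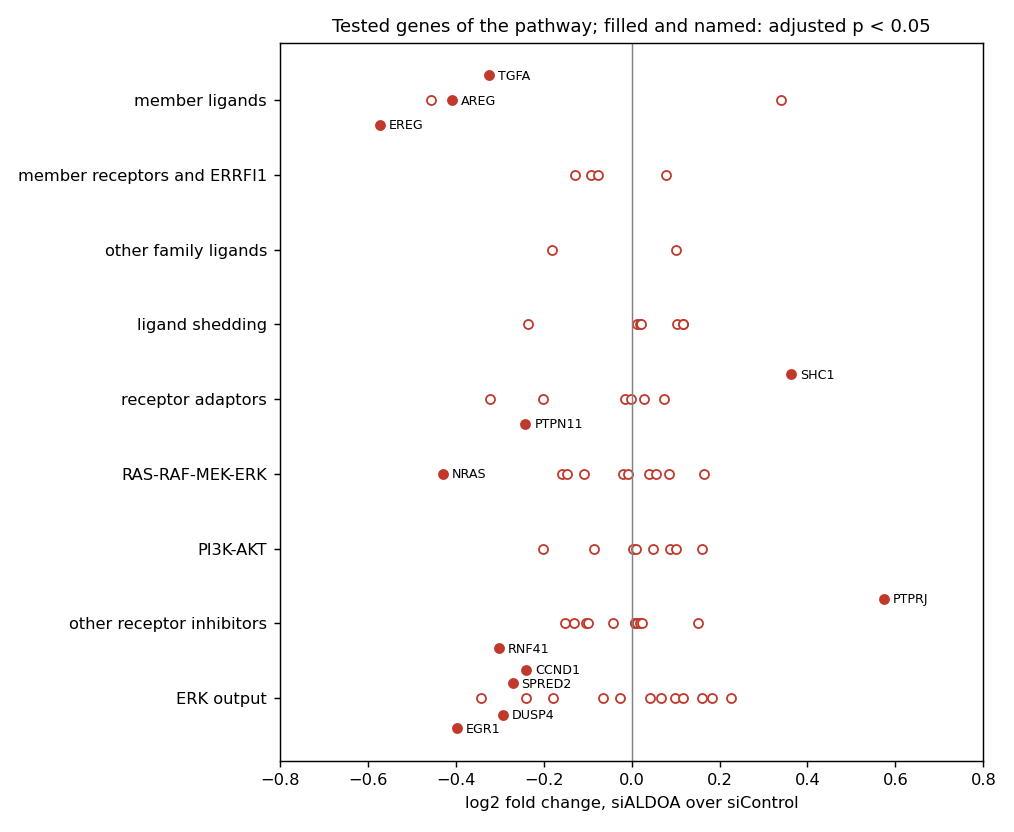
Log2 fold change of siALDOA over siControl of each tested gene of the family and of the 7 other lists, 1 row per list, with filled and named points for an adjusted p under 0.05. Vertical spread of named points within a row carries no value. SHC1 and PTPRJ lie above 0 and the 7 other named genes outside the member rows lie below it.

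The 3 ligands that fell varied together over the 6 libraries, with Pearson r of log2 CPM of 0.953 for EREG and TGFA, 0.903 for AREG and EREG and 0.901 for AREG and TGFA. These values include the difference between the groups, by which the 3 were picked, and share library depth and composition. A high r among the 3 was thus partly fixed by the choice. Over the other pairs of members, r ran from -0.833 (BTC and EGFR) to 0.893 (EGFR and ERBB3). The tested genes whose levels most resembled AREG were GNL3 (r = 0.998), ATP6V1E1 (0.996) and PSMD7 (0.992). For EREG they were MRGBP (0.999), TLNRD1 (0.995) and EPRS1 (0.994), and for TGFA they were PAF1 (0.998), ATP9B (0.996) and CLCN1 (0.995). Of the tested genes, 72 (0.47%), 228 (1.49%) and 266 (1.74%) had r above 0.95 with AREG, EREG and TGFA. GNL3, ATP6V1E1, PSMD7 and MRGBP did not themselves pass (adjusted p = 0.0535 to 0.0859, edgeR).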

How the data were processed

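RNA was measured in HT29 cells, 3 siALDOA and 3 siControl libraries. The authors aligned the reads with TopHat2 to hg38 and deposited raw read counts per gene symbol, made with gfold per the study's methods. The annotation, strand setting and treatment of multi-mapping reads are not given in the sources used here, so genes that share reads with an overlapping gene are uncertain. Library totals were 27277538 to 33237914 counts, and limits on counts of 0 cover counting error only. The 95% intervals come from the edgeR fit and include the spread between libraries. Genes were filtered by filterByExpr, scaled by TMM and tested with the quasi-likelihood F-test of edgeR 4.0.16 (R 4.3.3), with Benjamini-Hochberg adjustment over 15307 genes and a threshold of 0.05. Log2 CPM used a prior count of 2. RPKM used GENCODE exon lengths on hg38, and promoters came from RefSeq GRCh38.p14. Fits were tested on simulated data. Alternatives were library totals, upper quartile scaling, DESeq2 1.42.0, voom of limma 3.58.1, the likelihood ratio test, other filters, omission of rRNA genes, a replicate block and omission of each library. The members, gene lists and motifs were chosen with earlier results of these data known. Named genes were ALDOA, the members, the genes of each list that passed (at most 4, by p) and the 3 genes most correlated with each ligand that passed. ADAM10, ADAM17, EGF, NRG4, the named markers, the genes at or near 0 and SLC25A26 were chosen outside this rule, after their values were seen.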

Additional observations from a re-analysis of the deposited data

How the results depend on the processing

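No member changed direction under any of the 15 alternatives, and in each of them 0 members passed the test as higher with siALDOA, the log2 fold changes of BTC (0.25 to 0.42) and ERBB2 (0.017 to 0.15) being above 0 without passing. The number of members that passed as lower was 2 with library totals only, 4 with the likelihood ratio test, without a filter on low counts and with the replicate block, and 2 to 4 when a library was left out. Over all genes, leaving out a library gave 359 to 644 higher and 471 to 790 lower calls, with 359 higher and 490 lower without siControl replicate 2 and 363 higher and 471 lower without siControl replicate 3. Library totals only gave 279 lower calls. In the other pathway lists, the 7 lower calls became 1 with library totals only and 3 to 6 when a library was left out (4 without siControl replicate 2 and 3 without siControl replicate 3). The replicate numbers were not taken to pair the libraries, since deviations of same-numbered libraries from their group means correlated at 0.0262 to 0.0348. Each library did correlate best with its own number, which is a hint from the data and not from the design. With the replicate block, 987 genes were higher and 1175 lower, 11 of the lower ones in the pathway lists, and HBEGF passed (adjusted p = 0.0299, edgeR). When a library was left out, the difference of within-library log2 ratios was 0.077 to 0.25 for AREG to EREG (lowest without siALDOA replicate 1), -0.15 to -0.00025 for AREG to TGFA (nearest 0 without siALDOA replicate 3), -0.41 to -0.16 for AREG to EGFR (nearest 0 without siControl replicate 2), -0.17 to -0.14 for ERBB3 to ERBB2 and -0.029 to 0.081 for ERRFI1 to EGFR (below 0 without siALDOA replicate 1). HBEGF and BTC had the fewest counts of the tested members and the widest intervals. The cause of these changes was not tested.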

Other observations

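EPGN (epigen), a further EGF family ligand 48.4 kb from EREG, was singled out after its values were seen. With siALDOA it had 6, 7 and 9 counts and with siControl 2, 0 and 0, which was under the filter on low counts. Without that filter it was tested and did not pass (adjusted p = 0.103, edgeR). ERBB4, NRG2 and NRG3 had at most 6 counts in any library.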
